A study of Saccharomyces cerevisiae with 9 samples.

Results

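The tricarboxylic acid (TCA) cycle of the mitochondrial matrix was followed here through 10 nuclear genes of Saccharomyces cerevisiae. They were chosen by name, as genes for the enzymes that carry acetyl-CoA through citrate and 2-oxoglutarate back to oxaloacetate. The choice was made with earlier results of these data known. They are CIT1 (YNR001C), ACO1 (YLR304C), IDH1 (YNL037C), IDH2 (YOR136W), KGD1 (YIL125W), KGD2 (YDR148C), LSC1 (YOR142W), LSC2 (YGR244C), FUM1 (YPL262W) and MDH1 (YKL085W). These are 10 of the 7128 gene entries of the RNA-seq count table, and all 10 were among the 6338 genes that passed the expression filter and were tested. All 9 libraries came from the diploid strain BY4743, which lacks HIS3, LEU2 and URA3 on both homologs and is heterozygous at LYS2 and MET15. In the study's plasmid system every group carried a multicopy 2µ plasmid, pTOW40836, selected by its URA3 marker. In medium without leucine and uracil its weakly expressed leu2-89 marker pushes the copy number up, until the cloned protein, where there is one, limits growth. The plasmid was empty in the vector control (labelled Vector), expressed EGFP from the TDH3 promoter in EGFP overexpression (GFPop), and expressed moxGFP, a GFP without cysteine, from the same promoter in moxGFP overexpression (MOXop). Cells were grown in SC–Leu/Ura at 30 °C to OD 1.0 and total RNA was taken in log phase, with 3 biological replicates per group. Copy number differs from cell to cell in such a system, and in these bulk samples fewer cells that express a gene and less RNA per cell cannot be told apart.

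In the cycle, citrate synthase (CIT1) joins acetyl-CoA to oxaloacetate, aconitase (ACO1) isomerizes the citrate, and the NAD-dependent isocitrate dehydrogenase (IDH1 and IDH2) yields 2-oxoglutarate. The 2-oxoglutarate dehydrogenase complex (KGD1 and KGD2), succinyl-CoA ligase (LSC1 and LSC2), succinate dehydrogenase, fumarase (FUM1) and malate dehydrogenase (MDH1) then regenerate oxaloacetate. Budding yeast growing on glucose ferments most of it and represses much of the cycle. The steps up to 2-oxoglutarate remain needed for glutamate synthesis, and in cells with impaired mitochondria transcription of CIT1, ACO1, IDH1 and IDH2 is taken over by the retrograde factors Rtg1 and Rtg3, which bind GTCAC. In respiring cells the Hap2/3/4/5 complex, which binds CCAAT, activates most genes of the cycle.

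Windows around these letters are shown first, because they mark what the first steps of the cycle do and do not share in upstream sequence. They were read from the R64 genome of S288C in RefSeq within 500 bases before the start codon, by locus tag, since the count table carries no coordinates. Both orientations were searched on the strand of the gene, GTCAC as GTCAC or GTGAC and CCAAT as CCAAT or ATTGG, and the letters found are in capitals. The following lines give the matches to GTCAC in CIT1, ACO1 and IDH1 and, for comparison, in KGD1 of the later steps.
CIT1 (chrXIV:631412-631441, minus strand): gtgctaaaaggcGTCACgtttttttccgcc
ACO1 (chrXII:737981-738010, minus strand): tgaatgacgccgGTCACacgcgggtgcctg
IDH1 (chrXIV:559462-559491, minus strand): gttagaaagcacGTGACttacgttactatc
IDH1 (chrXIV:559340-559369, minus strand): cgggcgtcatagGTCACtcatcaaccaacc
KGD1 (chrIX:122516-122545, plus strand): aattttgtttctGTCACatagtcgcagcag
IDH2 held no match to GTCAC in its window. GTCAC occurred before 6 of the 10 genes, at 8 places, and before 42.45% of 6000 protein-coding genes of the same genome. Besides KGD1, the later genes LSC2 (1 place) and FUM1 (2 places) held GTCAC, in windows not printed here. The matches to CCAAT in the 4 genes of the first steps follow.
CIT1 (chrXIV:631337-631366, minus strand): tacttttgtgttATTGGaggatcgcaatcc
ACO1 (chrXII:737821-737850, minus strand): caaaggtcctgaCCAATcaatagagaaatt
ACO1 (chrXII:737738-737767, minus strand): accatcaaacctCCAATcgctgccggtttt
IDH1 (chrXIV:559129-559158, minus strand): ttcttccgcttcATTGGcttattcttgatt
IDH2 (chrXV:580149-580178, plus strand): gtgcatgacattATTGGatacactttttct
CCAAT occurred before 8 of the 10 genes, at 13 places, against 62.4% of protein-coding genes, and LSC1 held neither motif. Of the later genes, KGD1, KGD2, FUM1 and MDH1 held CCAAT at 2 places each, in windows not printed here. No match to GTCAC overlapped a match to CCAAT. A match of 5 letters is a description of the sequence and not a binding site.

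The libraries held 7022201 to 12959660 gene counts. Values are counts relative to the library size (CPM), scaled by edgeR's TMM method. The test was the quasi-likelihood F test of edgeR, with a Benjamini-Hochberg false discovery rate (FDR) over all 6338 genes, and an FDR below 0.05 is a call. The EGFP entry took 11.2 to 23.8% of gene counts in the EGFP libraries and the moxGFP entry 4.11 to 31.1% in the moxGFP libraries, and neither passed 0.000675% in the vector control. Replicate 2 of moxGFP stood apart, with 61.2% ribosomal RNA against 2.74 to 23.0% in the others and with the lowest share of the moxGFP entry. The moxGFP changes called among the 10 genes are therefore also given without it. The levels, medians, ratios and correlations include it, as do other changes unless stated. The smallest count of any of the 10 genes was 61, for MDH1 in that library, and the 10 genes together took 0.102 to 0.362% of the counts of open reading frames. In the RefSeq annotation of R64 none of the 10 had a near-identical copy or an overlapping gene. The annotation used for the counts is not known and could hold further entries. The closest relative of CIT1 was CIT2, 74.7% identical over 90.4% of the length.

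The order of transcript levels differed between the groups. Compared per kb of coding length, ACO1 was highest in the vector control at 505 ± 121 CPM per kb (SD, n = 3), followed by LSC1 at 461 ± 109 and IDH2 at 310 ± 73.4, and the ranges of neighbours in that order overlapped. FUM1 (191 ± 23.6) and IDH1 (182 ± 18.9) lay below the range of IDH2 and overlapped each other. CIT1 followed at 119 ± 17.2 CPM per kb, and LSC2, KGD2, MDH1 and KGD1 lay between 25.9 and 56.6. With EGFP overexpression LSC1 was highest at 270 ± 21.1 CPM per kb, above the range of IDH2, CIT1, ACO1 and FUM1, whose neighbours in the order overlapped at 129 to 151. ACO1 was thus level with CIT1 there, at 140 ± 15.3 against 145 ± 3.24 CPM per kb. With moxGFP overexpression LSC1 was again highest by mean, at 211 ± 32.5 CPM per kb, KGD1 was lowest at 15.6 ± 6.16, and all neighbours in the order overlapped.

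**Figure D1:**
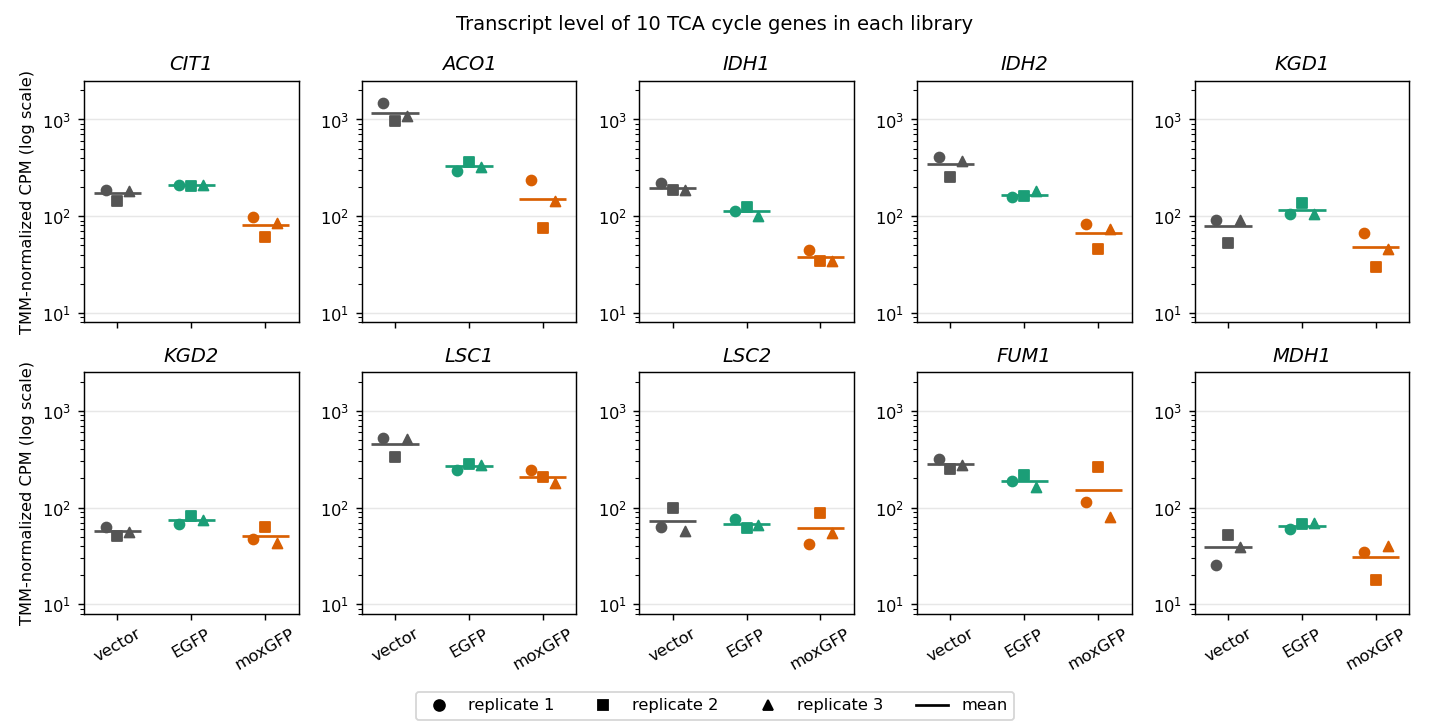
TMM-normalized CPM (log scale) of the 10 genes in each of the 9 libraries; symbols stand for replicates and the bar for the mean of 3. ACO1 lay at 957 to 1499 CPM in the vector control and at 365 or less in all other libraries, while CIT1 lay at 203 to 212 CPM with EGFP and at 61.2 to 97.8 CPM with moxGFP.

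EGFP overexpression was first set against the vector control. In this comparison transcripts of aconitase and of the isocitrate dehydrogenase subunits fell. No transcript of the later steps passed the edgeR test with all 9 libraries, though LSC1 did in some alternatives. Of the 10 genes 3 were called lower and 0 higher, where 7.76% of all genes tested were called lower and 7.60% higher, 15.4% in all. At an unadjusted p below 0.05 the counts were 4 lower and 0 higher, beside 955 and 1009 of all 6338 genes. DESeq2's Wald test called 4 lower (the same 3 and LSC1) and 0 higher, beside 12.2% and 8.99% of all genes. The median log2 fold change was −0.33 over the 10 genes and 0.09 over all genes tested.

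ACO1, whose enzyme also binds mitochondrial DNA in yeast, was measured at 1499, 957 and 1086 CPM in vector replicates 1 to 3 and at 294, 365 and 323 CPM in EGFP replicates 1 to 3. Every EGFP library lay far below the lowest vector library, and the EGFP replicates lay closer together than the vector replicates. The fitted change was −1.85 on the log2 scale (SE 0.41, edgeR FDR 0.0128), a 3.6-fold lower level. This call was lost without vector replicate 1 (edgeR FDR 0.0653), EGFP replicate 1 (0.0666) or EGFP replicate 2 (0.0530), with log2 changes of −1.66, −1.78 and −1.93.

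IDH2, which carries the catalytic site of isocitrate dehydrogenase, was at 405, 252 and 375 CPM in the vector control and at 157, 163 and 182 CPM with EGFP. IDH1, the regulatory subunit, was at 220, 186 and 184 CPM in the vector control and at 112, 125 and 100 CPM with EGFP. For both subunits the lowest vector library was above every EGFP library. The fitted log2 change was −1.04 for IDH2 (SE 0.31, edgeR FDR 0.0419) and −0.80 for IDH1 (SE 0.24, edgeR FDR 0.0467). These calls lay near the threshold. Leaving out each of the 6 libraries compared in turn kept the call of IDH2 once, without vector replicate 2, and that of IDH1 in none. When the whole fit was repeated without moxGFP replicate 2, the edgeR FDR was 0.0034 for IDH2 and 0.0089 for IDH1. When it was repeated without moxGFP replicate 3, neither was called. With no filter on low counts IDH1 was not called.

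CIT1, at the entry of the cycle, did not follow the enzymes just after it. It was at 188, 143 and 183 CPM in the vector control and at 209, 203 and 212 CPM with EGFP. All EGFP libraries lay above all vector libraries, yet the log2 change of 0.28 (SE 0.26) did not pass the test (edgeR FDR 0.509).

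Among the later steps, the E1 and E2 subunits of the 2-oxoglutarate dehydrogenase complex were higher in every EGFP library than in any vector library, without passing the test. KGD1 had 90.9, 53.3 and 92.3 CPM in the vector control against 105, 137 and 104 CPM with EGFP, a log2 difference of 0.55 (SE 0.34, edgeR FDR 0.303). For KGD2 the difference was 0.40 (SE 0.24, edgeR FDR 0.300). MDH1 had 25.6, 52.1 and 39.2 CPM against 59.5, 67.0 and 68.8 CPM, and a log2 difference of 0.74 (SE 0.34, edgeR FDR 0.167). LSC1, the alpha subunit of succinyl-CoA ligase, had 523, 332 and 513 CPM in the vector control against 244, 284 and 273 CPM with EGFP. Its log2 difference of −0.77 (SE 0.28) did not pass the test with all 9 libraries (edgeR FDR 0.0868) and did without moxGFP replicate 2 (−0.82, edgeR FDR 0.0235). LSC1 was also called lower with only the 2 groups compared and by DESeq2's Wald test. FUM1 was lower without overlap (−0.56, SE 0.40, edgeR FDR 0.371), and LSC2 overlapped (−0.10, SE 0.33, edgeR FDR 0.872). In all, the groups did not overlap for 5 lower genes and 4 higher genes, where 21.2% of all genes tested were lower and 24.6% higher without overlap.

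All 3 calls depended on how the libraries were scaled. They were made with TMM and with DESeq2's size factors, and none of the 3 was made with library sizes alone, ERCC spike-ins, the total of open reading frames or cyclic loess. For ACO1 the FDR under these 4 was 0.207, 0.606, 0.0602 and 0.0541 (edgeR, and limma for the last). With the total of open reading frames as library size the median of all genes moved to 0.75 on the log2 scale, and CIT1, KGD1, KGD2 and MDH1 were called higher, where 27.0% of all genes tested were called higher. Relative to the median of all genes, ACO1 lay at −1.31 to −2.03, IDH2 at −0.58 to −1.23 and IDH1 at −0.43 to −0.95 over 6 ways of scaling. Relative to the same median CIT1 lay at 0.12 to 0.72 and KGD1 at 0.30 to 0.88.

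**Figure D2:**
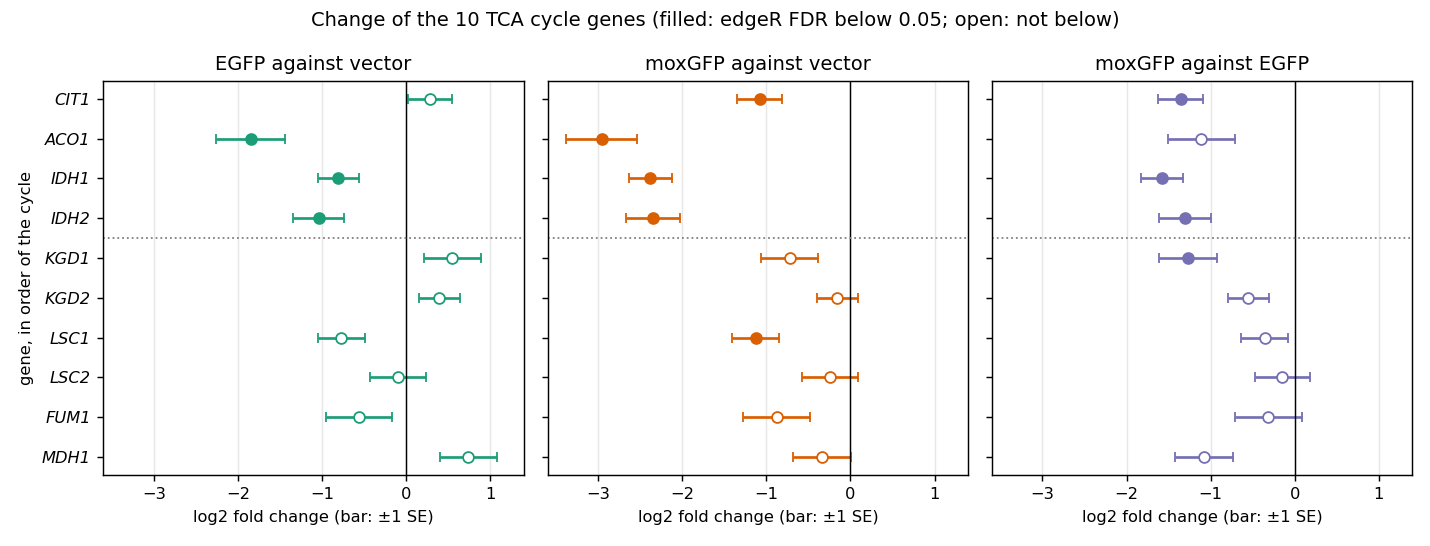
Log2 fold change of each gene (x axis) in the 3 comparisons, in the order of the cycle, with bars of 1 SE; filled points have an edgeR FDR below 0.05 and the dotted line separates the steps up to 2-oxoglutarate from the later ones. With EGFP the filled points are ACO1, IDH1 and IDH2, and with moxGFP CIT1 and LSC1 are filled as well.

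moxGFP overexpression was next set against the same vector libraries. All 4 genes that lead from acetyl-CoA to 2-oxoglutarate fell, and of the 6 later genes only LSC1 was called. This gives 5 genes called lower and 0 higher, where 14.0% of all genes tested were called lower and 14.8% higher, 28.8% in all. At an unadjusted p below 0.05 there were 6 lower and 0 higher, beside 1270 and 1468 of all 6338 genes. DESeq2's Wald test called 5 lower and 0 higher, beside 17.8% and 16.9% of all genes. The median log2 fold change was −2.36 over the 4 genes, −0.53 over the 6 later genes and 0.14 over all genes tested.

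ACO1 was at 237, 74.7 and 143 CPM in moxGFP replicates 1 to 3, all below the lowest vector library at 957 CPM. The fitted change was −2.96 on the log2 scale (SE 0.42, edgeR FDR 0.0016), 7.78-fold lower. Replicate 2, with the high ribosomal RNA share, was the lowest of the 3, and without it the change was −2.64 (edgeR FDR 0.0001).

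IDH1 was at 44.4, 34.1 and 34.6 CPM with moxGFP, against 184 to 220 CPM in the vector control, and its change of −2.38 (SE 0.26, edgeR FDR 0.0005) was 5.21-fold. IDH2 was at 83.2, 45.2 and 74.2 CPM with moxGFP, against 252 to 405 CPM, and its change of −2.34 (SE 0.32, edgeR FDR 0.0013) was 5.08-fold. Neither gene overlapped its vector range. Without replicate 2 the changes were −2.32 for IDH1 (edgeR FDR 6.4e-05) and −2.13 for IDH2 (edgeR FDR 0.0002). ACO1, IDH1 and IDH2 kept their calls when each of the 6 libraries compared was left out in turn, and under every scaling except ERCC spike-ins (edgeR FDR 0.112, 0.255 and 0.281).

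CIT1 was at 97.8, 61.2 and 84.1 CPM with moxGFP, below the lowest vector library at 143 CPM. Its log2 change of −1.08 (SE 0.27, edgeR FDR 0.0132) was a 2.11-fold lower level, and −0.92 without replicate 2 (edgeR FDR 0.0105). The call was lost without vector replicate 1 (edgeR FDR 0.0620) or vector replicate 3 (edgeR FDR 0.0505). It was also lost with library sizes alone (edgeR FDR 0.261), ERCC spike-ins (0.693), the total of open reading frames (0.162) and cyclic loess (limma FDR 0.0787, log2 change −0.59).

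LSC1 was at 242, 206 and 178 CPM with moxGFP against 332 to 523 CPM in the vector control, again without overlap. Its log2 change was −1.13 (SE 0.28, edgeR FDR 0.0143) and −1.12 without replicate 2 (edgeR FDR 0.0086), and the call was lost without vector replicate 1, vector replicate 3 or moxGFP replicate 3 (edgeR FDR 0.0670, 0.0561 and 0.0520). It was lost as well with library sizes alone, ERCC spike-ins and the total of open reading frames (edgeR FDR 0.173, 0.603 and 0.0808). LSC2, the beta subunit of the same ligase, was at 41.8, 88.7 and 54.5 CPM against 56.6 to 98.7 CPM, and its log2 difference of −0.24 (SE 0.33) did not pass the test (edgeR FDR 0.594).

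FUM1, which yields both the mitochondrial and the cytosolic fumarase, turned on the library that stood apart. It was at 114, 264 and 80.0 CPM in moxGFP replicates 1 to 3, against 248 to 317 CPM in the vector control. Replicate 2 lay within the vector range and the other replicates below it. With all libraries the log2 difference was −0.88 (SE 0.40, edgeR FDR 0.116), and without replicate 2 it was −1.53 (edgeR FDR 0.0011). KGD1 (−0.72, SE 0.34, edgeR FDR 0.127), KGD2 (−0.16, SE 0.24, edgeR FDR 0.647) and MDH1 (−0.34, SE 0.34, edgeR FDR 0.471) overlapped the vector control and were not called, with or without that replicate. Of the libraries left out in turn, only the absence of moxGFP replicate 1 gave a call for KGD1 (−1.05, edgeR FDR 0.0467). The 5 called genes were also the 5 without overlap, where 22.4% of all genes tested were lower and 22.9% higher without overlap.

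moxGFP and EGFP overexpression were then compared directly. Every one of the 10 genes had a lower mean with moxGFP (the fitted difference of LSC2 turned positive with cyclic loess or without moxGFP replicate 1), and 4 were called lower and 0 higher, where 7.07% of all genes tested were called lower and 7.48% higher, 14.5% in all. At an unadjusted p below 0.05 there were 7 lower and 0 higher, beside 981 and 1132 of all 6338 genes. DESeq2's Wald test called 6 lower and 0 higher, beside 10.1% and 12.8% of all genes. The groups did not overlap for 8 genes, all lower, where 19.0% of all genes tested were lower and 16.8% higher without overlap.

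IDH1 differed by −1.58 on the log2 scale (SE 0.25, edgeR FDR 0.0054), with 100 to 125 CPM with EGFP against 34.1 to 44.4 CPM with moxGFP. CIT1 differed by −1.36 (SE 0.27, edgeR FDR 0.0111), IDH2 by −1.30 (SE 0.31, edgeR FDR 0.0214) and KGD1 by −1.27 (SE 0.34, edgeR FDR 0.0335). KGD1 was at 67.1, 29.7 and 46.0 CPM with moxGFP, below the lowest EGFP library at 104 CPM. Without moxGFP replicate 2 all 4 were still called, at −1.47, −1.15, −1.05 and −0.99 (edgeR FDR 0.0019, 0.0059, 0.0158 and 0.0295), and FUM1 was called as well (−0.92, edgeR FDR 0.0262). Among the 6 libraries compared, leaving each out in turn kept the call of IDH1 every time, of CIT1 in 5 cases (lost without EGFP replicate 2), of IDH2 in 3 (lost without any of the EGFP replicates) and of KGD1 in 2. With library sizes alone or ERCC spike-ins none of the 10 genes was called.

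The remaining 6 genes did not pass the test between the GFPs. ACO1 differed by −1.11 (SE 0.40, edgeR FDR 0.0790) and by −0.75 without moxGFP replicate 2 (edgeR FDR 0.105). MDH1 had 34.4, 17.8 and 39.8 CPM with moxGFP, below the EGFP range of 59.5 to 68.8 CPM, and a log2 difference of −1.07 (SE 0.34, edgeR FDR 0.0566). For KGD2, LSC1, FUM1 and LSC2 the log2 difference lay between −0.55 and −0.15 (edgeR FDR 0.140 to 0.790).

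Ratios between genes within a library do not depend on how libraries are scaled. CIT1 to ACO1 and KGD1 to IDH1 were chosen after their values were seen, and the 3 subunit pairs by their complexes. Per kb of coding length, CIT1 stood to ACO1 as 0.204, 0.243 and 0.274 in the vector control, as 1.16, 0.902 and 1.06 with EGFP, and as 0.671, 1.33 and 0.953 with moxGFP. The geometric mean ratio was thus 4.34-fold higher with EGFP and 3.97-fold higher with moxGFP than in the vector control, without overlap. KGD1 to IDH1 was 0.142 ± 0.0383 in the vector control, 0.363 ± 0.0282 with EGFP and 0.440 ± 0.117 with moxGFP (SD, n = 3). Neither GFP overlapped the vector control in this ratio, and the GFPs overlapped each other in both ratios. Since these pairs were picked for their values, they are a description and have no test.

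The subunit pairs overlapped between the groups in all 9 comparisons. IDH1 to IDH2 was 0.606 ± 0.134 in the vector control, 0.696 ± 0.115 with EGFP and 0.600 ± 0.154 with moxGFP (SD, n = 3), with exact two-sided permutation p-values of 0.4 to 0.9. Over all 9 comparisons of subunit pairs the smallest exact p was 0.2 (0.6 after Benjamini-Hochberg adjustment), and 3 libraries against 3 cannot go below 0.1. KGD1 to KGD2 was 0.630 ± 0.138, 0.704 ± 0.0598 and 0.451 ± 0.217, where moxGFP replicate 2 alone lay at 0.218. LSC1 exceeded LSC2 per kb in every library, at a ratio of 8.99 ± 4.03 in the vector control, 5.17 ± 0.937 with EGFP and 4.92 ± 2.33 with moxGFP.

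**Figure D3:**
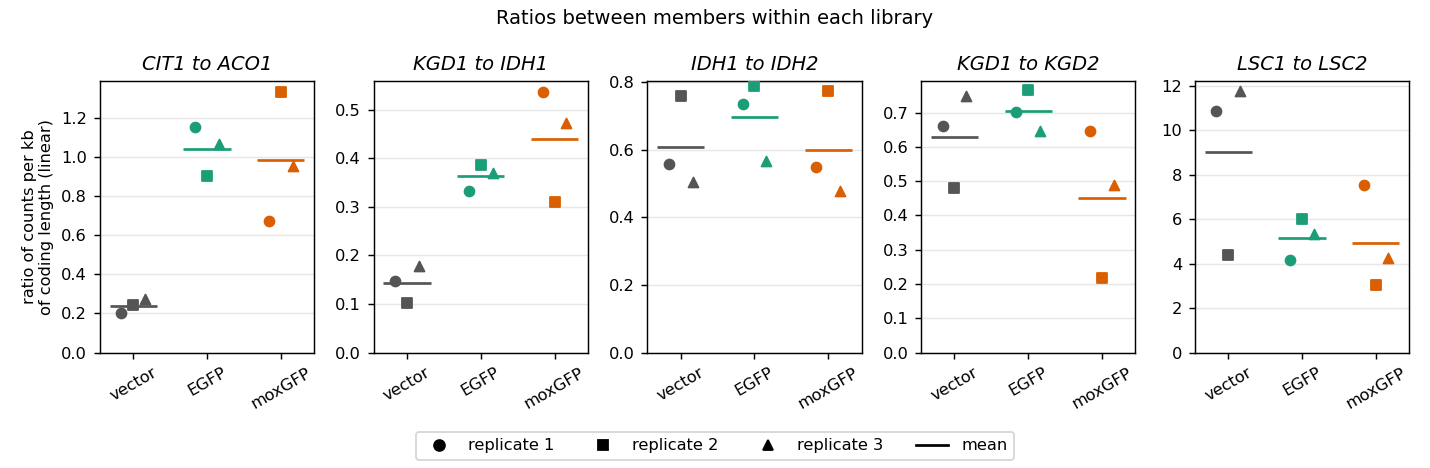
Ratio of counts per kb of coding length between pairs of the 10 genes within each library (linear y axes from 0); symbols stand for replicates and the bar for the mean of 3. The ratio of CIT1 to ACO1 lay at 0.204 to 0.274 in the vector control and at 0.671 to 1.33 in all other libraries, while IDH1 to IDH2 overlapped between the groups.

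The genes of the first steps were more like the mean profile of the 10 over the 9 libraries than the later ones. Pearson's r of each gene's log2 CPM with the mean standardized profile of all 10 was 0.97 for IDH1, 0.91 for CIT1, 0.91 for IDH2 and 0.83 for ACO1, and 0.79 or less for the later steps, down to 0.25 for LSC2. Each gene is itself part of that mean, and the points share library, depth and scaling, so these values are a description. Between pairs, r was highest for ACO1 and IDH2 (0.97) and lowest for KGD1 and LSC2 (−0.30). Outside the cycle, the 5 genes most like the mean profile were YDR112W (r = 0.992), YML054C-A (0.990), YBR053C (0.990), DAK1 (0.988) and AYR1 (0.988). DAK1 encodes a dihydroxyacetone kinase and AYR1 an acyl-dihydroxyacetone-phosphate reductase. YDR112W and YML054C-A lay at low levels, with means of 5.81 and 4.52 CPM in the vector control and 0.600 and 0.948 CPM with moxGFP.

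A further 53 genes around the cycle were read from lists of its other subunits, paralogs, entry, carriers and regulators, and all were tested. With EGFP 6 of the 53 were called lower and 0 higher, with 13 lower and 7 higher at an unadjusted p below 0.05 and 10 lower and 2 higher by DESeq2's Wald test. Over all genes, edgeR called 7.76% lower and 7.60% higher. At an unadjusted p below 0.05 there were 955 lower and 1009 higher of all 6338 genes. DESeq2's Wald test called 12.2% of all genes lower and 8.99% higher. With moxGFP 12 were called lower and 3 higher against the vector control, beside 14.0% and 14.8% of all genes. At an unadjusted p below 0.05 there were 17 and 5, beside 1270 and 1468 of all 6338 genes. DESeq2's Wald test called 15 and 5, beside 17.8% and 16.9% of all genes. Between the GFPs 3 were called lower and 1 higher with moxGFP, beside 7.07% and 7.48% of all genes. The unadjusted counts were 10 and 5, beside 981 and 1132 of all 6338 genes. DESeq2's Wald test called 6 and 4, beside 10.1% and 12.8% of all genes. The median over the 53 genes was −0.04, −0.37 and −0.18 on the log2 scale in these comparisons.

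SDH1, the flavoprotein of succinate dehydrogenase, was at 160, 97.8 and 121 CPM in the vector control, 134, 166 and 107 with EGFP and 66.4, 21.6 and 48.2 with moxGFP. It fell with moxGFP, by −1.46 against the vector control (SE 0.39, edgeR FDR 0.0187) and by −1.57 against EGFP (SE 0.39, edgeR FDR 0.0243). Without moxGFP replicate 2, its lowest library, the changes were −1.14 and −1.20 (edgeR FDR 0.0085 and 0.0119). SDH2, the iron-sulfur subunit, was not called with all libraries (−0.81, edgeR FDR 0.314; −1.72 against EGFP, edgeR FDR 0.0757), and was called against EGFP without moxGFP replicate 2 (−1.19, edgeR FDR 0.0154), a library in which it had 5.5 CPM. LPD1, the lipoamide dehydrogenase shared by the pyruvate and 2-oxoglutarate complexes, was not called in any comparison. IDP1, the mitochondrial NADP-dependent isocitrate dehydrogenase, was called higher where IDH1 and IDH2 fell, with 142 to 193 CPM in the vector control and 302, 1137 and 278 CPM with moxGFP. The excess of replicate 2 enlarged its change, which was 1.70 (SE 0.50, edgeR FDR 0.0263) with that library and 0.72 (edgeR FDR 0.0370) without it.

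Among the paralogs, CIT3, a mitochondrial citrate and methylcitrate synthase, fell from 42.6, 26.7 and 23.7 CPM in the vector control to 8.1 to 8.7 CPM with EGFP and 9.4 to 12.2 CPM with moxGFP. Its log2 changes were −1.89 (edgeR FDR 0.0029) and −1.54 (edgeR FDR 0.0044). CIT2, the peroxisomal citrate synthase and a standard reporter of retrograde signalling, was at 244 to 363 CPM in the vector control, 294 to 310 with EGFP and 168 to 326 with moxGFP, with log2 differences of 0.00 and −0.18 (edgeR FDR 0.998 and 0.677). MDH2 and MDH3, the relatives of MDH1, were not called in any comparison with all 9 libraries. Without moxGFP replicate 2, MDH2 was called higher with EGFP (0.96, edgeR FDR 0.0095) and MDH3 lower with moxGFP (−0.85, edgeR FDR 0.0127). SDH9 (−1.98, edgeR FDR 0.0100), a relative of SDH1, and IDP3 (−1.21, edgeR FDR 0.0250), the peroxisomal isocitrate dehydrogenase, fell with moxGFP.

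The pyruvate dehydrogenase complex, which supplies the cycle with acetyl-CoA, also held called genes. PDB1, the beta subunit of its E1 component, was at 1304 to 1408 CPM in the vector control, 404 to 461 with EGFP and 258 to 584 with moxGFP, with log2 changes of −1.65 (edgeR FDR 0.0096) and −1.74 (edgeR FDR 0.0053). PDA1, the alpha subunit, was called lower with moxGFP (−1.10, edgeR FDR 0.0194) and not with EGFP (−0.67, edgeR FDR 0.144). LAT1, the E2 component, fell with moxGFP against the vector control (−1.32, edgeR FDR 0.0064) and against EGFP (−1.36, edgeR FDR 0.0118). PKP2, a kinase that inhibits the complex, rose with moxGFP from 17.2 to 19.1 CPM in the vector control to 36.6, 37.9 and 55.8 CPM (1.28, edgeR FDR 0.0088). PDX1, the E3-binding subunit, was called higher with moxGFP (1.94, edgeR FDR 0.0141), where replicate 2 was at 159 CPM and the others at 37.9 and 59.3 CPM, and the change was 1.12 without that replicate (edgeR FDR 0.0113). PYC2, pyruvate carboxylase, was called lower with EGFP (−1.20, edgeR FDR 0.0250, a call kept with only 1 of the 6 libraries left out) and with moxGFP (−1.45, edgeR FDR 0.0080), and PYC1 with moxGFP (−1.05, edgeR FDR 0.0205).

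Of genes that draw on cycle intermediates, GLT1, the glutamate synthase that uses 2-oxoglutarate, fell from 450 to 825 CPM in the vector control to 158 to 194 CPM with EGFP (−1.83, edgeR FDR 0.0071) and 195 to 352 CPM with moxGFP (−1.34, edgeR FDR 0.0148). CTP1, the mitochondrial citrate carrier, was called lower with EGFP (−1.63, edgeR FDR 0.0432), where replicate 3 was at 24.8 CPM and the others at 108 and 132 CPM, a call also kept with only 1 of the 6 libraries left out. DLD3, a retrograde target like CIT2, was at 572 to 749 CPM in the vector control. It was at 251 to 342 CPM with EGFP (−1.26, edgeR FDR 0.0380) and at 168 to 413 CPM with moxGFP (−1.08, edgeR FDR 0.0431). Its call with EGFP was kept with none of the 6 libraries left out, and that with moxGFP with 3 of 6.

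Of the 9 regulators 0 were called with EGFP, 1 with moxGFP and 1 between the GFPs, where 15.4%, 28.8% and 14.5% of all genes tested were called. HAP4, the activating subunit of the Hap complex, was at 12.9 to 15.2 CPM in the vector control, 14.0 to 22.2 with EGFP and 5.8 to 13.8 with moxGFP, and was not called in any comparison. RTG1 and RTG3 were not called either with all 9 libraries. RTG3 had 4.3 to 9.7 CPM in the vector control and 13.03 to 16.3 CPM with EGFP (1.10, edgeR FDR 0.170). When the whole fit was repeated without moxGFP replicate 2, 5 of the 9 regulators were called with EGFP, where 32.0% of all genes tested then were. These were RTG3 (1.04, edgeR FDR 0.0137), HAP5 (1.04, 0.0114), MKS1 (−0.74, 0.0253) and, named after their values were seen, HAP2 (1.30, 0.0067) and HAP1 (−0.96, 0.0084). Against the vector control, moxGFP then gave calls for 4 of the 9, HAP1, HAP2, RTG3 and MKS1, where 37.3% of all genes were called. MKS1, an inhibitor of retrograde signalling, was called lower with moxGFP (−0.80, edgeR FDR 0.0452), and HAP5, a subunit of the Hap complex, was lower with moxGFP than with EGFP (−1.36, edgeR FDR 0.0445) at 1.7 to 6.0 against 9.1 to 13.5 CPM. With all 9 libraries and EGFP, 4 of the 9 had an unadjusted p below 0.05, as had 1964 of all 6338 genes. DESeq2's Wald test called 1 higher and 1 lower, where it called 8.99% of all genes higher and 12.2% lower. Every call named here for a gene around the cycle was also made without moxGFP replicate 2. With each of the 6 libraries compared left out in turn, CIT3 and GLT1 with EGFP, and CIT3, PDB1, LAT1, PKP2 and PYC2 with moxGFP against the vector control, kept their calls every time, and the other named calls were lost at least once.

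**Figure D4:**
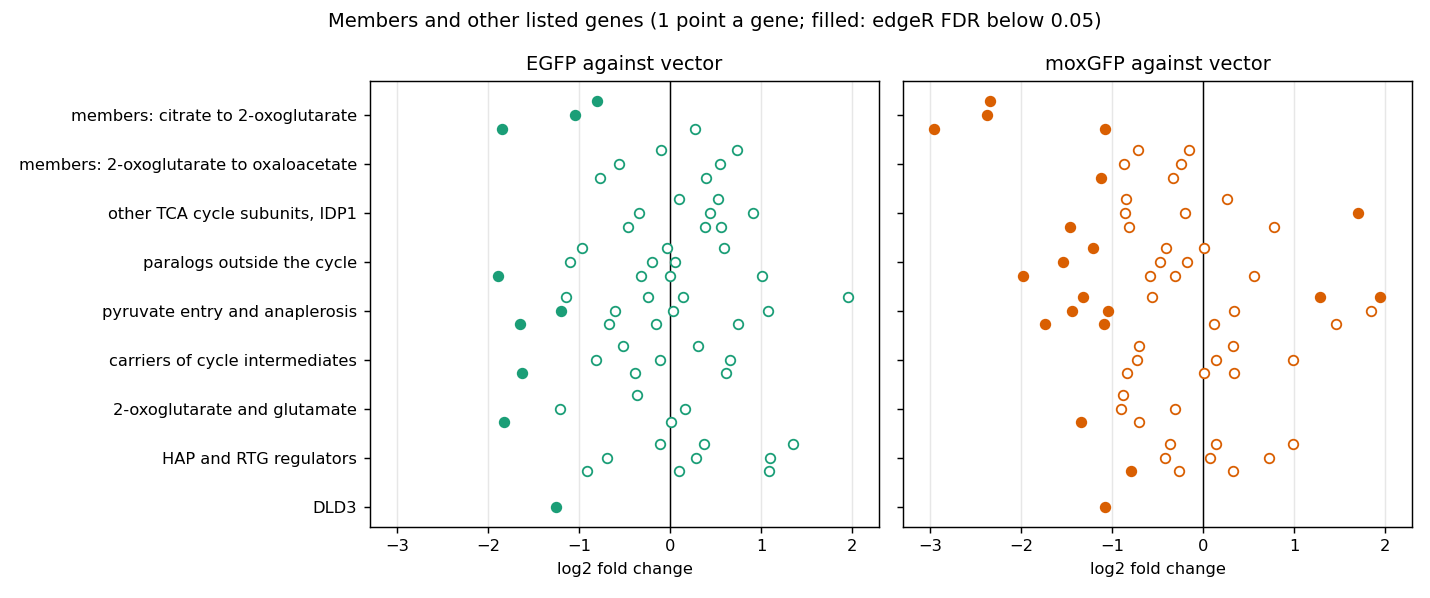
Log2 fold change against the vector control (x axis) of the 10 cycle genes and of 53 genes around the cycle, by list, 1 point a gene; filled points have an edgeR FDR below 0.05. The 4 genes of the steps up to 2-oxoglutarate lie at −2.96 to −1.08 with moxGFP, and the filled points on the right there are IDP1, PDX1 and PKP2.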

How the data were processed

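RNA was sequenced in paired ends from 3 biological replicates per group, and groups and replicate numbers were taken from the sample labels. The authors used FastP, HISAT2 2.2.0, SAMtools 1.11 and StringTie and deposited raw counts per gene without normalization. The genome build, annotation and strand setting of the counting are not given in the sources used here. The 92 ERCC rows were set aside, filterByExpr kept 6338 of 7128 genes, and edgeR 4.0.16 (R 4.3.3; the submitters' notes name edgeR 3.28.1) fitted the 3 groups over 9 libraries with TMM and no replicate block, with an FDR threshold of 0.05. limma 3.58.1 and DESeq2 1.42.0 served as alternatives, with other scalings, filters, a block, the compared groups alone and each library left out (20 alternatives in all). BLAST 2.17.0 searched for near-identical copies (identity of 90% or more across 50% or more of the coding length). The genes described, the lists and the tests were chosen with earlier results of these data known. Named from the lists were called genes (at most the 6 with the smallest FDR per list and comparison) and genes fixed by name (1 of them is not reported here), and the 5 genes most alike by Pearson's r.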

Additional observations from a re-analysis of the deposited data

Results flagged for a closer look

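The moxGFP and EGFP effects, each taken against the vector control, differed by the direct edgeR test for 4 of the 10 genes, all lower, where 7.07% of all genes tested were called lower. The log2 difference of moxGFP from EGFP was −1.36 for CIT1, −1.58 for IDH1, −1.30 for IDH2 and −1.27 for KGD1 (edgeR FDR 0.0111, 0.0054, 0.0214 and 0.0335). CIT1 and KGD1 had higher means with EGFP than in the vector control and lower means with moxGFP, and IDH1 and IDH2 were lower with each. Without moxGFP replicate 2, the library with the high ribosomal RNA share, the 4 calls were still made. Without EGFP replicate 2 only IDH1 was called, without EGFP replicate 1 or 3 only IDH1 and CIT1, and with library sizes alone or ERCC spike-ins none. No single gene's values were tested for outlying libraries, since groups of 3 are too small for that.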

How the results depend on the processing

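The number of the 10 genes called (3 lower with EGFP, 5 lower with moxGFP, 4 lower between the GFPs) depended on the scaling and on single libraries. With library sizes alone it was 0, 3 and 0, with ERCC spike-ins as library size 0, 0 and 0, with the total of open reading frames 4 (all higher), 3 and 4, and with cyclic loess in limma-voom 0, 4 and 5. With only the 2 groups compared it was 4, 5 and 2. Leaving out single replicates gave 0 to 4 with EGFP (0 without vector replicate 1, EGFP replicate 1 or EGFP replicate 2), 3 to 6 with moxGFP (3 without vector replicate 1 or 3) and 1 to 5 between the GFPs (1 without EGFP replicate 2).

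The median with EGFP turned to 0.10 with library sizes alone, 0.32 with the open reading frame total and 0.0616 with cyclic loess. LSC2 with EGFP turned to 0.32, 0.55 and 0.22 under these, and to 0.19 without vector replicate 2. FUM1 with EGFP turned to 0.0934 with the open reading frame total. With moxGFP, KGD2 turned to 0.23 and 0.34, and LSC2 to 0.10 and 0.27, with the open reading frame total and cyclic loess, MDH1 to 0.15 with the former, and LSC2 ranged from −0.60 to 0.0383 with single replicates left out (highest without vector replicate 2). Between the GFPs LSC2 turned to 0.0517 with cyclic loess and ranged from −0.45 to 0.0813 with single replicates left out (highest without moxGFP replicate 1). None of these single-gene values was called. ACO1, IDH1 and IDH2 kept their direction in every alternative. The cause of each change was not tested.

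Over all genes, the calls (higher, then lower) numbered 482 and 492 for EGFP, 937 and 887 for moxGFP, and 474 and 448 for moxGFP against EGFP. In the same order library sizes alone gave 81 and 34, 104 and 144, and 19 and 127, ERCC spike-ins 7 and 14, 11 and 17, and 2 and 2, and the open reading frame total 1713 and 170, 1583 and 403, and 195 and 498. Relative to TMM, the largest shift of the median of all genes was 0.65 on the log2 scale, with the open reading frame total for EGFP. Single libraries moved these counts too. For EGFP they were 945 and 1104 without moxGFP replicate 2, and 106 and 168 without vector replicate 1. For moxGFP they were 346 and 404 without vector replicate 1. For moxGFP against EGFP they were 32 and 69 without EGFP replicate 2, and 111 and 148 without EGFP replicate 1. The shares of all genes called, given beside the counts of members, rest on the fit to all 9 libraries.

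The replicate numbers are biological replicates that the labels do not tie to a shared batch. Deviations from the group mean correlated at −0.33 to 0.23 between libraries with the same number (mean −0.02) and at −0.25 to 0.31 between others (mean 0.01), so the numbers were not treated as pairs. With the replicate block the calls among the 10 genes were 1 (ACO1), 5 and 4. Counts of 61 or more lay behind every value of the 10 genes.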

Other observations

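The ratio of IDH1 to IDH2 was highest in replicate 2 and lowest in replicate 3 in every group, at 0.757 and 0.504 in the vector control. The same values were 0.787 and 0.567 for EGFP overexpression, and 0.774 and 0.478 for moxGFP overexpression. This order was noticed after the values were seen and has no test here.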
